A study of Rattus norvegicus with 16 samples.

Results

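The genes described here are Ugt2b7, Ugt2b15, Ugt2b37 and Ugt1a6, which encode UDP-glucuronosyltransferases that conjugate phenols, and Ugdh, which encodes the enzyme that makes their cofactor. They were taken by name, with earlier results of these data known. They were found as 9 probes, among 61657 probes and 15284 named genes of a rat array. Ugt1a6 had 3 probes, Ugt2b15 and Ugt2b37 had 2 each, and Ugt2b7 and Ugdh had 1 each. Another 10 Ugt genes had a named probe. The array measured total RNA of the renal outer medulla of male Crl:CD Sprague-Dawley rats, 5 weeks old when dosing began. The treated rats received 2-amino-4-nitrophenol (ANP), an aromatic amine that carries a phenol hydroxyl and a nitro group, at 750 mg/kg/day by gavage in corn oil, and the vehicle rats received corn oil alone. Tissue was collected on days 1, 7, 14 and 28 of dosing. Mixed RNA of 3 animals filled 1 array per group on days 1 and 7, so those days carry no test. On days 14 and 28 a group consisted of 3 arrays of single animals, and ratios are always ANP over vehicle of the same day.

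Glucuronidation joins glucuronic acid to the hydroxyl or amino group of a drug, toxicant or hormone, which makes it more soluble in water and fit for transport into urine or bile. Ugdh oxidises UDP-glucose to UDP-glucuronic acid in the cytosol, carriers move that cofactor into the endoplasmic reticulum, and the Ugt enzymes there transfer the sugar. The Ugt1a enzymes share their common exons at a single locus and differ in the first exon, whereas the Ugt2b enzymes are encoded by separate and similar genes that lie beside each other. In kidney these enzymes are known mainly from the proximal tubule, whose straight segment (S3) runs through the outer stripe of the outer medulla.

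Values are log2 signal relative to the 75th percentile of each array. Since probes differ in brightness, the level of one probe is not set against that of another, and only ratios between groups are compared across probes. Of all probes, 64.75% to 69.6% were well above background on each array, and replicate arrays correlated with each other at 0.987 to 0.993. Precision is limited by there being 3 arrays per group. The arrays of days 1 and 7 shared 1 slide. The 3 vehicle arrays of day 28 lay on another slide than the 3 ANP arrays of day 28, so at that day slide and treatment cannot be told apart. At day 14, ANP replicate 1 shared a slide with the 3 vehicle arrays, and ANP replicates 2 and 3 lay on the slide of the day 28 vehicle arrays.

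The Ugt2b genes described below were higher in ANP tissue at every day, and the sequences just upstream of their start sites share a long identical stretch. The 250 bases upstream of each RefSeq start site are shown 5′ to 3′ for the 3 Ugt2b members and for Ugt2b35, a neighbouring Ugt2b gene whose probe gave nearly the same profile as those of Ugt2b15 and Ugt2b37. All lie on the plus strand of GRCr8, at chr14:21251285-21251534 for Ugt2b7, chr14:21122616-21122865 for Ugt2b15, chr14:21171886-21172135 for Ugt2b37 and chr14:21208191-21208440 for Ugt2b35. Capitals mark the longest run of bases that all 4 share.
Ugt2b7: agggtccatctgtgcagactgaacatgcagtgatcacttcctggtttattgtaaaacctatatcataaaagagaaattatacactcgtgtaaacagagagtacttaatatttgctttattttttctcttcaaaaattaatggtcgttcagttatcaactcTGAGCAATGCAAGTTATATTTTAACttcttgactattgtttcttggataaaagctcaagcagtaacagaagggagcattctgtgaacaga
Ugt2b15: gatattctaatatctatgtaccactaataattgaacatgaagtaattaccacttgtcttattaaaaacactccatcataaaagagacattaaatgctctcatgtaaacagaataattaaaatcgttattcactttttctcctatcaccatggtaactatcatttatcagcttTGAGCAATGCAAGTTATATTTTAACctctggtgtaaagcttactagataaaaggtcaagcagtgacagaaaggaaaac
Ugt2b37: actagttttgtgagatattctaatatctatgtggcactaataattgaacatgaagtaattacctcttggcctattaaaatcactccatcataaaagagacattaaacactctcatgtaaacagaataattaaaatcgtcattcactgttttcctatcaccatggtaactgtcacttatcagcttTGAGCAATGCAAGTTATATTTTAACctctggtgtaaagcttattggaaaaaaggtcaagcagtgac
Ugt2b35: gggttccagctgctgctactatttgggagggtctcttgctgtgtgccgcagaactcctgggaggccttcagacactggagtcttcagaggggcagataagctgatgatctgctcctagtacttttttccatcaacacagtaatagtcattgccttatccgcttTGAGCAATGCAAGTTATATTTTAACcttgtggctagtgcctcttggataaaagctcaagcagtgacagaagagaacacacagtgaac
The shared run, TGAGCAATGCAAGTTATATTTTAAC, is 25 bases long and begins at -90, -78, -66 and -87 from the start site in Ugt2b7, Ugt2b15, Ugt2b37 and Ugt2b35. On either strand it was present in 7 of 33469 RefSeq promoter windows (0.0209%). These were the 4 genes shown, Ugt2b, Ugt2b7l1 and 1 locus known only by a number. Over windows of 300 bases (250 before and 50 after the start), Ugt2b15 and Ugt2b37 were identical at 85.3% of aligned positions, Ugt2b7 and Ugt2b35 at 70.9%, and Ugt2b37 and Ugt2b35 at 61.1%. In the order of the annotation the genes follow each other as Ugt2b15, an unnamed protein-coding locus, Ugt2b37, Ugt2b35 and Ugt2b7.

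Ugt1a6 and Ugdh lie elsewhere, and their windows were 43.4% to 51.3% identical to those of the Ugt2b genes and to each other. Their upstream bases are shown because they hold the letters searched as response element cores, which the Ugt2b windows lack. They lie on the plus strand at chr9:96194768-96195017 and chr14:43202268-43202517 of GRCr8. Capitals mark GCGTG, the xenobiotic response element core bound by the aryl hydrocarbon receptor, and TGACNNNGC, the antioxidant response element core bound by Nrf2, searched on both strands.
Ugt1a6: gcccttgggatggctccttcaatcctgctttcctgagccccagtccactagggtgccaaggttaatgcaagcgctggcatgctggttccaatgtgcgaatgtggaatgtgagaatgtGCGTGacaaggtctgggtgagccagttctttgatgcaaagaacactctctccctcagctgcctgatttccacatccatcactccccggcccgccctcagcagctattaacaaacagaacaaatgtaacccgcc
Ugdh: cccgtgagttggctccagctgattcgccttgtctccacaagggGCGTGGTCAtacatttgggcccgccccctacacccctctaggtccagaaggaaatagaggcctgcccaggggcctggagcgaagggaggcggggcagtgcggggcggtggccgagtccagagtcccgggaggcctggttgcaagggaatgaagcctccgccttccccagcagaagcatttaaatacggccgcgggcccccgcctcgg
GCGTG was found once in Ugt1a6, at -133, and once in Ugdh, at -207. TGACNNNGC was found once, in Ugdh on the minus strand at -207, where it overlaps GCGTG. Neither was found in the windows of the 4 Ugt2b genes, nor in those of Ugt1a1 and Ugt1a2. Among all RefSeq windows of the same length, 29.7% hold GCGTG and 12.1% hold TGACNNNGC. These matches describe letters in a window and were not tested as sites.

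After 1 and 7 days of dosing, all 9 probes were higher in the ANP pool than in the vehicle pool, and 7 of the 9 were at least 2-fold higher on each day. Over all probes tested, 3.41% were at least 2-fold higher at day 1 and 1.6% at day 7. With 1 probe per gene, 4 of the 5 genes were at least 2-fold higher on each day, against 3.77% of the genes tested at day 1 and 1.57% at day 7. Ugt1a6 was the gene below that fold on both days. As the genes were chosen with earlier results of these data known, the shares over all genes are a description and no test. Probes of Ugt2b15 and Ugt2b37 shared profiles, as described below, so these are not counts of independent genes.

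At days 14 and 28, where animals were measured one by one, the 5 genes were again higher in ANP tissue on average. Taking the mean of both days, all 5 rose by limma's test, at a p adjusted over 11853 genes (Benjamini-Hochberg) of under 0.05, and 6.14% of the genes tested were called higher in that comparison. Ugt2b7 rose 7.92-fold, Ugt2b15 4.74-fold, Ugt2b37 4.7-fold, Ugt1a6 1.52-fold and Ugdh 1.46-fold. At day 28 alone, Ugt2b15, Ugt2b37 and Ugt1a6 passed, 3 of 5 where 4.47% of genes were called higher. The probes used for Ugt2b15 and Ugt2b37 had nearly the same profile, as described below. The counts in this paragraph are thus not counts of independent genes or probes. At day 14 alone limma called 0 of 5, where 0.363% of genes were called higher, although each of the 5 had an unadjusted p under 0.05, as did 7.29% of genes in that direction. All 3 ANP arrays exceeded all 3 vehicle arrays in 5 of 5 genes at day 14 and 3 of 5 at day 28, against 10.3% and 18.6% of genes. Probe by probe, limma over 41223 probes called 0 of 9 higher at day 14, 7 of 9 at day 28 and 8 of 9 for the mean of both days, against 0.124%, 3.84% and 4.12% of all probes. Groups were separate for 9 of 9 probes at day 14 and 7 of 9 at day 28, against 8.61% and 17.5%. Here too the genes had been chosen with earlier results of these data known. The counts beside the shares over all genes and probes therefore describe them and do not test them as a set.

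**Figure D1:**
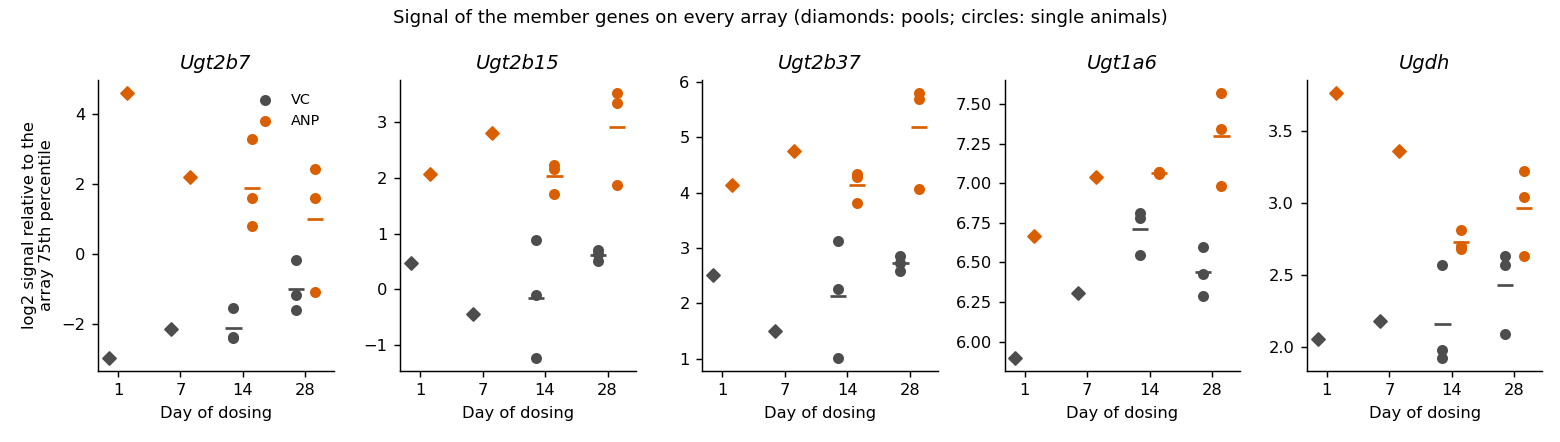
Log2 signal relative to the array's 75th percentile for the probe used for each of the 5 genes, on all 16 arrays, by day and treatment, with a separate vertical scale for each gene. Each point is 1 array (a pool of 3 animals at days 1 and 7, 1 animal at days 14 and 28); ANP arrays lie above vehicle arrays of the same day except in Ugt2b7 and Ugdh at day 28, where the groups overlap.

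Ugt2b7 (NM_173323), a transferase of the Ugt2b family, had the largest ratio of the 5 genes at day 1. Its single probe was well above background on all 16 arrays. It read -2.95 in the vehicle pool and 4.60 in the ANP pool at day 1, a 188-fold difference, and -2.14 against 2.21 at day 7, a 20.4-fold difference. At both days the pools are thus far apart, with no replicate to give their spread. At day 14 the vehicle arrays read -1.54, -2.36 and -2.40 and the ANP arrays 0.79, 3.29 and 1.61. The groups were separate, with ANP replicate 2 highest. The ratio was 4.0 ± 0.87 on the log2 scale (SE of the limma fit, n = 3 per group; 16-fold), with an adjusted p of 0.0846. On the slide that held ANP replicate 1 and the vehicle arrays, the ratio was 2.89.

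At day 28 Ugt2b7 read -1.60, -0.17 and -1.17 in vehicle tissue and -1.08, 2.44 and 1.61 in ANP tissue. ANP replicate 1 fell among the vehicle arrays, and the other 2 ANP arrays lay above all of them. The log2 ratio was 1.97 ± 0.87 (3.92-fold) with an adjusted p of 0.179 by limma. Without ANP replicate 1 it was 3.01 with an adjusted p of 0.0435, and without ANP replicate 2 it was 1.25 with an adjusted p of 0.425. Leaving out any other array of that day gave ratios from 1.66 to 2.38 and adjusted p-values from 0.22 to 0.381. The vehicle mean was -2.10 ± 0.48 at day 14 and -0.98 ± 0.74 at day 28 (SD, n = 3). The ratio at day 28 minus that at day 14 was -2.03 ± 1.23, with an adjusted p of 0.632. Over both days the mean log2 ratio of 2.99 ± 0.61 passed with an adjusted p of 0.0163. By limma, 0 of 11853 genes (0%) had a higher ratio at day 28 than at day 14 after adjustment. The opposite direction was not counted. At an unadjusted p under 0.05, the ratios of 1098 genes (9.26%) differed between the days in either direction.

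Ugt2b15 (NM_153314), whose enzyme is known for conjugating phenols and steroids, was read by 2 probes. The probe used for the gene, A_44_P247784, read 0.47 in the vehicle pool and 2.07 in the ANP pool at day 1 (3.04-fold) and -0.45 against 2.81 at day 7 (9.55-fold). At day 14 the vehicle arrays read 0.88, -0.10 and -1.23, and the ANP arrays 2.16, 1.72 and 2.24. The vehicle arrays were spread over more than 2 log2 units and the ANP arrays lay close together above them. The log2 ratio was 2.19 ± 0.51 (4.56-fold), with an adjusted p of 0.105 by limma. At day 28 the vehicle arrays read 0.70, 0.64 and 0.50 and the ANP arrays 1.88, 3.53 and 3.35. Here the vehicle arrays lay close together and ANP replicate 1 was the lowest of the ANP arrays. The ratio of 2.30 ± 0.51 (4.94-fold) passed, with an adjusted p of 0.0285. Over both days the mean log2 ratio was 2.25 ± 0.36, with an adjusted p of 0.00637.

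The other Ugt2b15 probe, A_64_P011301, gave larger ratios, most of all at day 1. It read -2.44 in the vehicle pool and 1.25 in the ANP pool at day 1 (12.9-fold) and -2.37 against 1.19 at day 7 (11.8-fold). At day 14 it read -2.13, -3.15 and -2.62 in vehicle tissue and -0.49, 0.18 and 0.15 in ANP tissue. At day 28 it read -2.02, -2.67 and -2.72 against -0.80, 1.02 and 1.36. The groups were separate on both days. The log2 ratio was 2.58 ± 0.50 at day 14 and 3.00 ± 0.50 at day 28, with adjusted p-values of 0.0768 and 0.0128 from the limma fit over 41223 probes.

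Ugt2b37 (NM_001007264), a rodent Ugt2b gene near Ugt2b15, gave the same picture with its 2 probes. The probe used, A_64_P099254, read 2.52 and 4.13 in the vehicle and ANP pools at day 1 (3.04-fold) and 1.5 and 4.76 at day 7 (9.62-fold). At day 14 it read 3.13, 2.26 and 1.02 in vehicle tissue and 4.29, 3.81 and 4.33 in ANP tissue. As with Ugt2b15, vehicle replicate 1 was high, replicate 3 low and the ANP arrays lay above all 3. Their log2 ratio was 2.01 ± 0.53 (4.03-fold), with an adjusted p of 0.147 by limma. At day 28 the arrays read 2.86, 2.72 and 2.59 against 4.06, 5.80 and 5.69. The ratio was 2.46 ± 0.53 (5.49-fold), with an adjusted p of 0.0261, and the mean over both days was 2.23 ± 0.38, with an adjusted p of 0.00736.

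The second Ugt2b37 probe, A_42_P670179, was well above background on 15 of 16 arrays, all but vehicle replicate 3 of day 28. It read -4.83 in the vehicle pool and -1.12 in the ANP pool at day 1 (13-fold), and -4.86 against -1.83 at day 7 (8.16-fold). At day 14 the vehicle arrays read -4.48, -5.17 and -4.44 and the ANP arrays -3.02, -2.07 and -2.68. At day 28 they read -3.98, -5.27 and -5.93 against -3.81, -1.75 and -1.44. ANP replicate 1 of day 28 lay just above the highest vehicle array. The log2 ratio was 2.11 ± 0.63 at day 14 and 2.73 ± 0.63 at day 28, with adjusted p-values of 0.228 and 0.0336 by limma over probes.

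The day 28 calls of Ugt2b15 and Ugt2b37 held without ANP replicate 1 of that day, with adjusted p-values of 0.015 and 0.0128 by limma. They were lost without any other single array of that day. Without vehicle replicate 1, 2 or 3, or ANP replicate 2 or 3, the adjusted p was 0.0833, 0.0899, 0.0709, 0.0907 and 0.0632 for Ugt2b15. For Ugt2b37 it was 0.0745, 0.0842, 0.0663, 0.0836 and 0.0593 in the same order. Their log2 ratios stayed between 2.00 and 3.02 throughout. The mean of both days kept an adjusted p under 0.05 for Ugt2b7, Ugt2b15, Ugt2b37 and Ugt1a6 without any single array.

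Since Ugt2b genes are similar in sequence, the probes were compared with each other for signs that they do not read separate transcripts. For each pair the difference between both probes' log2 values was taken on each array, and its SD over the 16 arrays measures how far the profiles part. For 11180 pairs of probes of the same gene, over 5659 genes, this SD had a median of 0.145 and lay between 0.0665 and 0.313 at the 10th and 90th percentiles. The probes A_44_P247784 of Ugt2b15 and A_64_P099254 of Ugt2b37 differed with an SD of 0.12, and that of Ugt2b15 differed from the Ugt2b35 probe with an SD of 0.08. These probes of 3 different genes thus followed each other as closely as probes of a single gene usually do, and their calls are not counted here as independent of each other.

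Probes of the same Ugt2b gene followed each other less closely. The SD was 0.74 for the Ugt2b15 probes and 0.91 for the Ugt2b37 probes, both above the 90th percentile of same-gene pairs. Those reference pairs are of probes well above background on all 16 arrays, whereas A_42_P670179 of Ugt2b37 was so on 15. The part of low signal in its SD was not tested. The other probes of these genes, A_64_P011301 and A_42_P670179, were closer to each other, with an SD of 0.40. At day 1 the log2 ratio was 1.60 for A_44_P247784 and 1.60 for A_64_P099254, and 3.69 and 3.70 for A_64_P011301 and A_42_P670179. Over days 14 and 28 the ratios of the 2 Ugt2b15 probes differed by -0.54 ± 0.35 (exact two-sided permutation of arrays within days, n = 3 per group and day, p = 0.125, 0.178 adjusted over 25 pairs). Those of the 2 Ugt2b37 probes differed by 0.18 ± 0.49 (exact permutation p = 0.68, adjusted 0.739). The smallest p this test allows is 0.005, and 0 of the 25 pairs passed after adjustment. The probe sequences were not used here, so which transcripts each probe binds was not tested.

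**Figure D2:**
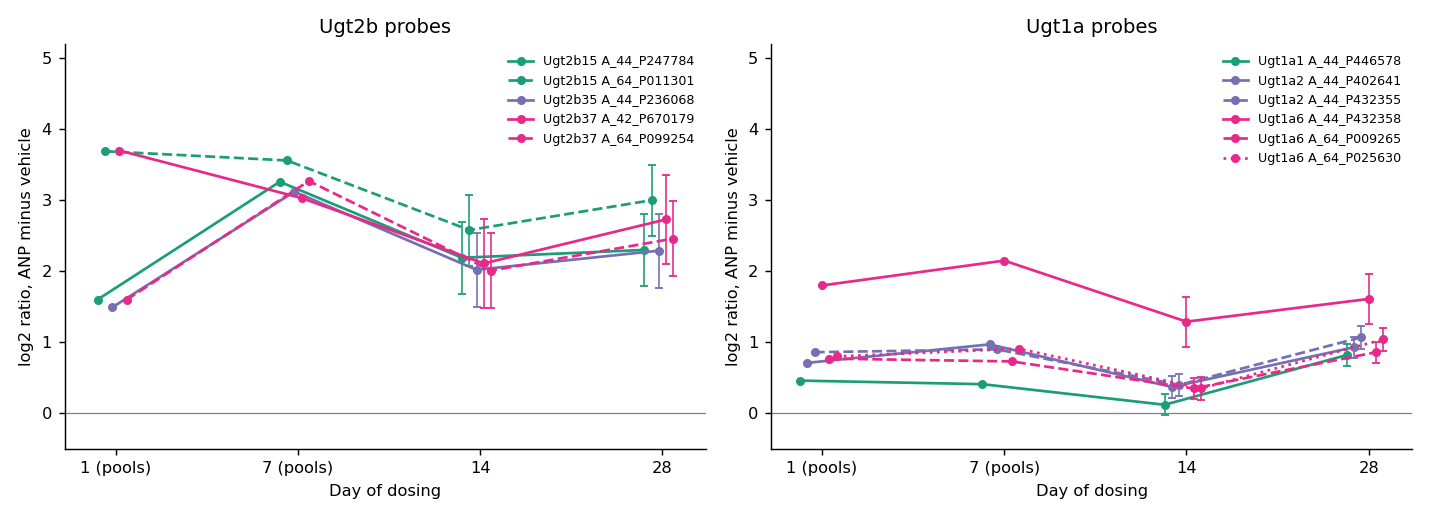
Log2 ratio of ANP to vehicle for 5 Ugt2b probes (left) and 6 Ugt1a probes (right) at each day (days 1 and 7 from 1 pool per group, days 14 and 28 with the SE of the limma fit). At day 1 A_44_P247784, A_64_P099254 and the Ugt2b35 probe lie between 1.49 and 1.60 and the other probes of Ugt2b15 and Ugt2b37 at 3.69 and 3.70; A_44_P432358 lies above the other Ugt1a probes on every day.

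Ugt1a6, the Ugt1a enzyme best known for planar phenols, rose 1.81-fold at day 28. The probe used, A_64_P009265 (NM_001039691), read 5.90 in the vehicle pool and 6.67 in the ANP pool at day 1 (1.71-fold) and 6.31 against 7.04 at day 7 (1.66-fold). At day 14 it read 6.78, 6.81 and 6.55 in vehicle tissue and 7.07, 7.06 and 7.07 in ANP tissue. The groups were separate by a small gap and the ANP arrays nearly equal. This gave a log2 ratio of 0.35 ± 0.14 (1.27-fold), with an adjusted p of 0.328 by limma. At day 28 it read 6.29, 6.60 and 6.43 against 6.98, 7.57 and 7.34. The ratio was 0.86 ± 0.14 (1.81-fold), with an adjusted p of 0.011, and it stayed under 0.05 without any single array of that day. Its day 28 ratio exceeded its day 14 ratio by 0.51 ± 0.20, which did not pass after adjustment (adjusted p = 0.497).

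The 3 Ugt1a6 probes fell into 2 profiles. A_64_P025630, which carries the same accession as the probe used, had log2 ratios of 0.35 ± 0.16 at day 14 and 1.04 ± 0.16 at day 28, and differed from it with an SD of 0.09. A_44_P432358, which carries the accession NM_057105, read 0.09 and 1.89 in the pools of day 1 (3.48-fold) and 0.25 and 2.40 in those of day 7 (4.45-fold). At day 14 it read 0.71, 0.42 and -0.24 in vehicle tissue and 1.61, 1.71 and 1.44 in ANP tissue. At day 28 it read 0.57, 0.69 and 0.26 against 1.20, 2.51 and 2.62. The groups were separate on both days. Its log2 ratios were 1.29 ± 0.35 at day 14 and 1.61 ± 0.35 at day 28, with adjusted p-values of 0.185 and 0.0288 by limma over probes. Over both days its ratio exceeded those of the other probes by 0.84 ± 0.20 and 0.75 ± 0.19 (exact permutation p = 0.01 and 0.015, both 0.0536 after adjustment over 25 pairs).

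Probes of Ugt1a2 and, less closely, Ugt1a1 followed the brighter Ugt1a6 probes, and the Ugt1a9 probe did not. A probe of Ugt1a2 (A_44_P402641) differed from A_64_P009265 with an SD of 0.07, and another (A_44_P432355) differed from A_64_P025630 with an SD of 0.05. The Ugt1a1 probe differed from these with SDs of 0.18 to 0.22, and the Ugt1a9 probe parted from A_64_P009265 and A_64_P025630 with SDs of 0.73 and 0.76. Ugt1a2 rose at day 28, with a log2 ratio of 0.93 ± 0.15 and an adjusted p of 0.00981 by limma. Ugt1a1, the bilirubin-conjugating form, rose by 0.82 ± 0.15 at day 28 (adjusted p = 0.013) and its ratio at day 14 was 0.12 ± 0.15 (adjusted p = 0.803). Ugt1a9 had ratios of -0.09 ± 0.40 and -0.14 ± 0.40 at days 14 and 28, with groups that overlapped. In the pools its log2 ratio was 0.00 at day 1 and 1.34 at day 7 (2.54-fold). The signal of its probe was low, from 38.9 to 223 over the arrays, and its vehicle arrays of day 14 had an SD of 0.80. The part of low signal in its SDs from the other probes was not tested. The Ugt1a transcripts share exons, and whether the Ugt1a1, Ugt1a2 and Ugt1a6 probes read separate transcripts was not tested.

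Ugdh (NM_031325), the UDP-glucose dehydrogenase, was highest against vehicle in the pools. It read 2.06 in the vehicle pool and 3.76 in the ANP pool at day 1 (3.25-fold) and 2.18 against 3.36 at day 7 (2.27-fold). At day 14 it read 1.93, 2.57 and 1.98 in vehicle tissue and 2.70, 2.81 and 2.68 in ANP tissue. At day 28 it read 2.57, 2.63 and 2.09 against 2.63, 3.22 and 3.04. The groups were separate at day 14 and met at day 28, where ANP replicate 1 equalled vehicle replicate 2 to 2 decimals. The log2 ratio was 0.57 ± 0.21 (1.48-fold, adjusted p = 0.266 by limma) at day 14 and 0.53 ± 0.21 (1.45-fold, adjusted p = 0.138) at day 28. The mean of both days was 0.55 ± 0.15 (1.46-fold) and passed with an adjusted p of 0.041. That call was lost without any one of 10 of the 12 arrays, with adjusted p-values from 0.0597 to 0.087. It held only without vehicle replicate 2 of day 14 or ANP replicate 1 of day 28.

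**Figure D3:**
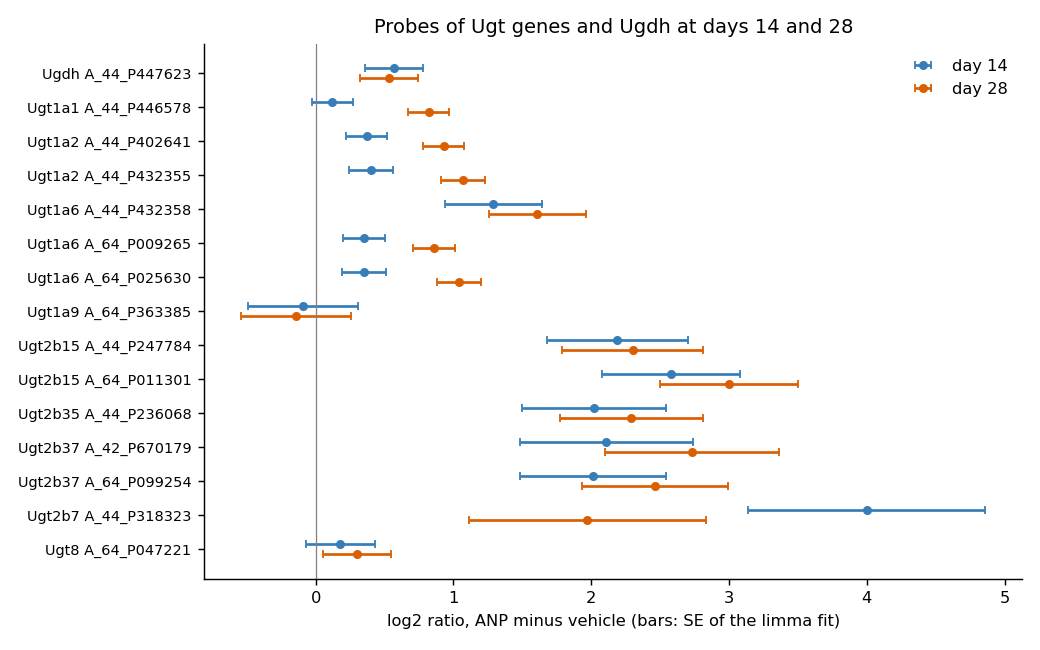
Log2 ratio of ANP to vehicle at days 14 and 28 for 15 probes of Ugt genes and Ugdh, with bars for the SE of the limma fit (n = 3 arrays per group). Ratios of the Ugt2b probes lie between 1.97 and 4.0, those of the Ugt1a6 probes between 0.35 and 1.61, and the bars of both days overlap for Ugt2b15, Ugt2b37 and Ugdh.

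ANP replicate 1 of day 28 had the lowest value of its group on all 9 probes. Its log2 deviation from the vehicle mean of that day was -0.10 for Ugt2b7, 1.26 for Ugt2b15, 1.33 for Ugt2b37, 0.54 for Ugt1a6 and 0.20 for Ugdh. The other 2 ANP arrays deviated by 3.42 and 2.59, by 2.91 and 2.74, by 3.07 and 2.97, by 1.13 and 0.90, and by 0.79 and 0.61 for the same genes. At day 14 no ANP array was lowest throughout: replicate 1 was lowest for Ugt2b7 and replicate 2 for the probes used for Ugt2b15 and Ugt2b37. On the slide that ANP replicate 1 of day 14 shared with the vehicle arrays, the log2 ratio was 2.31 for Ugt2b15, 2.15 for Ugt2b37, 0.35 for Ugt1a6 and 0.54 for Ugdh. With slide as a fixed block these ratios rest on ANP replicate 1 alone, since the slide of the other ANP arrays held no vehicle array of day 14. No p-value of that fit is therefore given.

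Of the other Ugt genes with a named probe, 5 could be tested. Besides Ugt1a1, Ugt1a2 and Ugt1a9, these were Ugt2b35, which rose at day 28 by a log2 ratio of 2.29 ± 0.52 (adjusted p = 0.0305 by limma), and Ugt8, a galactosyltransferase of myelin lipids, with a ratio of 0.30 ± 0.25 (adjusted p = 0.47). The other 5, Ugt2a1, Ugt2a3, Ugt2b, Ugt2b1 and Ugt2b10, did not clear background throughout any group of days 14 and 28. Ugt2b, whose promoter holds the 25-base run, was well above background on 3, 0 and 4 of 16 arrays by its 3 probes. Counting members with the rest of their families, 3 of 4 Ugt1 genes and 3 of 4 Ugt2 genes tested rose at day 28. Over all genes 4.47% were called higher. The median log2 ratios of the families were 0.84 and 2.29, where the median of all genes was 0.02. Since probes of Ugt2b15, Ugt2b35 and Ugt2b37 shared a profile, as did those of Ugt1a1, Ugt1a2 and Ugt1a6 to differing degrees, these are not counts of independent genes.

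Among 18 genes for the supply and use of UDP-glucuronic acid, 1 was called higher at day 14 and 2 at day 28 by limma, and 0 lower, with a median log2 ratio of 0.21 at day 28. Over all genes, the share called higher was 0.363% at day 14 and 4.47% at day 28, and the share called lower 0.118% and 2.63%. Slc35d2, a nucleotide sugar transporter, rose on both days, by 0.67 ± 0.09 (adjusted p = 0.02) and 0.73 ± 0.09 (adjusted p = 0.00476). Slc35d1, another transporter of this list, was not called. Its ratios were -0.47 ± 0.17 at day 14 (adjusted p = 0.262 by limma) and 0.14 ± 0.17 at day 28 (adjusted p = 0.643). Which sugars these transporters carry was not tested. Ugp2, which makes the UDP-glucose that Ugdh oxidises, rose by 0.91 ± 0.13 at day 28 (adjusted p = 0.00717), and in the day 1 pools its log2 ratio was 0.13 where that of Ugdh was 1.70. Among those that did not pass, Entpd5 had a ratio of 0.66 ± 0.18 at day 28 (adjusted p = 0.0522).

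Of 22 genes for export, uptake and hydrolysis of conjugates, limma called 3 higher at day 28 and 0 at day 14, against 4.47% and 0.363% of all genes. An unadjusted p under 0.05 at day 14 was found for 1588 of 11853 genes and for 5 of these 22. Their median log2 ratio was -0.02 at day 28. Abcc2 (MRP2), which pumps glucuronides across the apical membrane, had ratios of 4.17 and 3.65 in the pools of days 1 and 7. It was 2.79 ± 0.51 at day 14 (adjusted p = 0.0518) and rose by 2.15 ± 0.51 at day 28 (adjusted p = 0.0349). Abcc3 (MRP3), a basolateral pump of conjugates, rose by 0.85 ± 0.21 (adjusted p = 0.0376). Slc22a7 (OAT2), an organic anion transporter and an S3 marker, rose by 1.68 ± 0.21 (adjusted p = 0.00476), and its ratio in the day 1 pools was -2.60. The largest ratios at day 28 that did not pass were those of Slco1a1 (-1.36), Abcb1a (1.24), Abcb1b (0.88) and Slc22a8 (-0.66).

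Phenols and amines can also be sulfonated, acetylated or methylated. The list holds genes of these reaction types, and which substrates their enzymes act on was not tested. Of 16 tested, 2 were called higher and 1 lower at day 28 by limma, against 4.47% and 2.63% of all genes. At day 14 it called 0. An unadjusted p under 0.05 was found there for 1588 of 11853 genes and for 4 of these 16. Their median log2 ratio was -0.10 at day 28. The sulfotransferases Sult4a1 and Sult2b1 rose by 1.5 ± 0.32 and 1.19 ± 0.18 (adjusted p = 0.0258 and 0.00845), and Sult1c2, with a ratio of -1.16 ± 0.23, fell (adjusted p = 0.0185). Sult1a1, the phenol sulfotransferase, had a ratio of -0.64 ± 0.33 (adjusted p = 0.236) and of -1.44 in the day 1 pools.

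Of 21 transcription factors known to act on Ugt genes, 0 were called on either day by limma. Over all genes, 0.363% and 4.47% were called higher at days 14 and 28, and 0.118% and 2.63% lower. At those days 7 and 5 of the 21 had an unadjusted p under 0.05, against 1588 and 3122 of 11853 genes. For the mean of both days 1 factor, Rxra, was called lower (-0.32 ± 0.09, adjusted p = 0.0442), as were 479 of 11853 genes. The median log2 ratio of the factors was -0.11 at day 28. The largest ratios at day 28 were those of Cdx2 (-1.26 ± 0.57), Ahrr (-1.03 ± 0.45), Maff (0.91 ± 0.25, adjusted p = 0.0522) and Hnf4a (0.69 ± 0.24). For 13 tested target genes of the receptors AHR, CAR, PXR and PPARA, the median ratio was -0.24 at day 28. At that day limma called 0 of the 13 higher and 1 lower, against 4.47% and 2.63% of genes. For the mean of both days it called 1 in each direction, against 728 and 479 of 11853 genes. Cyp1a1, the standard AHR target, had a ratio of 2.57 ± 1.13 with overlapping groups (adjusted p = 0.18) and of -2.20 in the day 1 pools. Cyp3a9 had a ratio of 9.44 in the day 1 pools and 3.01 in the day 7 pools. It was 1.66 ± 0.37 at day 14 (adjusted p = 0.0903 by limma) and 0.88 ± 0.37 at day 28 (adjusted p = 0.158). Its groups were separate on both days, and limma called it higher for their mean (1.27 ± 0.26, adjusted p = 0.016).

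For each of the 5 genes the 3 genes with the nearest profile over the 16 arrays are given as a description. These correlations share arrays, groups and days. For Ugt2b7 they were Abcc2 (r = 0.956), Cimap2 (0.951) and Ptgr1 (0.937), a reductase of reactive aldehydes and ketones. For Ugt2b15 and Ugt2b37 they were each other (0.996), Ugt2b35 (0.999 and 0.996) and Slc17a1 (0.975 and 0.980), a phosphate and anion transporter of the proximal tubule. For Ugt1a6 they were Ugt1a2 (0.994), Akr7a3 (0.952), an aldehyde reductase, and Gstp1 (0.933), a glutathione transferase. For Ugdh they were Hmox1 (0.910), haem oxygenase, Sqstm1 (0.908), an autophagy receptor, and Ephx1 (0.897), the microsomal epoxide hydrolase.

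Cortical tissue in an outer medulla sample would carry proximal tubule cells of the early segments (S1 and S2), so their markers were set beside the Ugt values. All 16 such markers were tested and well above background on all 16 arrays. Their mean log2 level, centred for each gene, read 0.28, -0.38 and -0.88 in vehicle replicates 1, 2 and 3 of day 14, and -0.57, -1.0 and -0.93 in the ANP arrays of that day. At day 28 it read 0.88, 0.90 and 0.66 in vehicle tissue and 0.19, 0.44 and 0.26 in ANP tissue. The summed marker level ranged on the log2 scale from 10.82 to 11.26 in vehicle and from 10.56 to 10.90 in ANP tissue at day 14, and from 11.37 to 11.41 and 11 to 11.37 at day 28. In the pools the centred mean read 0.37 in vehicle and -0.05 in ANP tissue at day 1, and -0.27 and 0.12 at day 7. The markers were lower on average in ANP tissue at days 1, 14 and 28 and higher at day 7. Ugt2b15 and Ugt2b37 were higher in ANP tissue on all 4 days. Within the day 14 vehicle group, the markers were highest in replicate 1 and lowest in replicate 3. The probes A_44_P247784, A_64_P099254, A_44_P236068 (Ugt2b35), A_44_P318323 (Ugt2b7) and A_44_P432358 (Ugt1a6) had the same order. A_64_P011301, A_42_P670179, the other Ugt1a6 probes and the Ugdh probe did not have that order. Other cortical markers had that order too. The 7 glomerular markers read 0.05, -0.21 and -0.71 in vehicle replicates 1, 2 and 3 of day 14, and the 3 tested markers of the distal convoluted tubule 0.34, -0.84 and -2.13. At day 28 their median log2 ratios were -0.94 and -1.40, with 2 of 7 and 0 of 3 called lower by limma (4 and 2 at an unadjusted p under 0.05). Over all genes, 2.63% were called lower and 3122 of 11853 had an unadjusted p under 0.05. Of the 16 S1 and S2 markers, limma called 1 higher and 1 lower at day 28, against 4.47% and 2.63% of genes. For the mean of both days it called 1 higher and 6 lower, against 728 and 479 of 11853 genes. The part of tissue composition in the Ugt values was not tested. In bulk tissue, fewer cells of a type and less RNA per cell cannot be told apart.

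The defining segments of the outer medulla were present. All 12 tested S3 markers and all 10 tested markers of the thick ascending limb were well above background on all 16 arrays; Slc12a1, a defining marker of that limb, was not analysed here. In the day 1 pools 495 of 11852 genes were at least 2-fold lower in ANP tissue, and so were 5 of 12 S3 markers. The median log2 ratio over S3 markers was -0.90, with a centred mean level of 0.22 in vehicle and -0.82 in ANP tissue. The part of this in the day 1 Ugt ratios was not tested. The median over S3 markers was -0.09 at day 7 and -0.17 at day 14. At day 28 the medians of the S3 and ascending limb markers were 0.10 and 0.27, with 1 of 12 S3 markers called higher and 1 of 10 ascending limb markers called in each direction by limma. Of the collecting duct markers, 0 of 12 were called higher and 3 lower at day 28, with a median of -0.50. Over all genes, 4.47% were called higher and 2.63% lower at that day. Since Ugt genes are highly expressed in liver, 9 hepatocyte markers were also read; 7 were well above background on all 16 arrays. The median log2 ratio of the 9 was -0.85 at day 28, where 1 was called lower by limma. This was Cyp2c11, a cytochrome P450 of male rat liver, with ratios of -6.70 ± 1.26 at day 14 (adjusted p = 0.0532) and -6.03 ± 1.26 at day 28 (adjusted p = 0.0232).

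**Figure D4:**
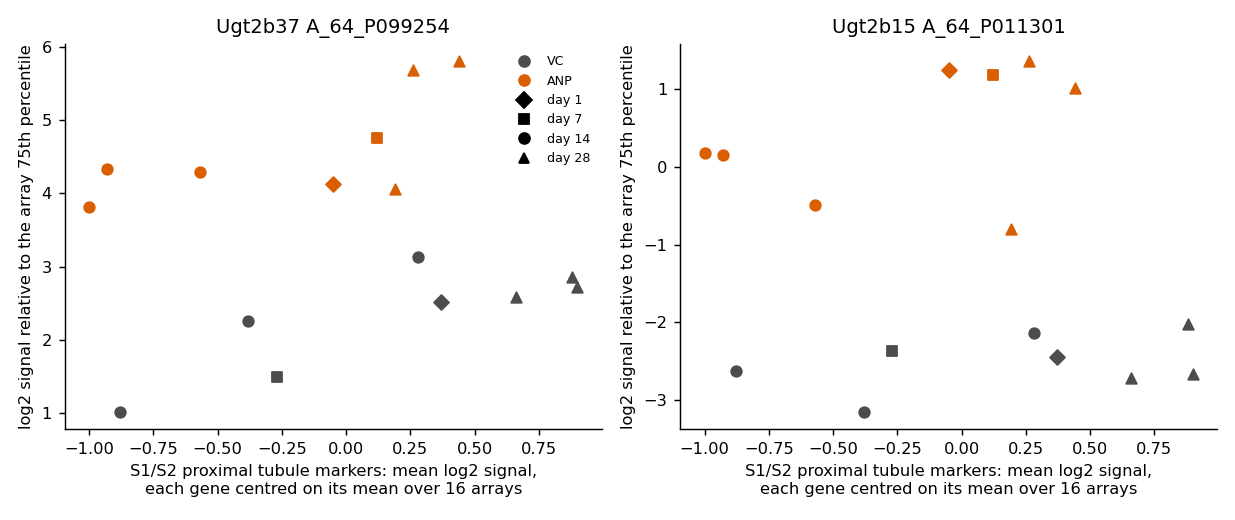
Mean log2 level of the S1 and S2 proximal tubule markers (16 genes, centred for each gene) on each of 16 arrays (horizontal) against the log2 signal of A_64_P099254 of Ugt2b37 (left) and A_64_P011301 of Ugt2b15 (right), coloured by treatment and shaped by day. ANP arrays lie above vehicle arrays of the same day on both vertical axes. Their marker level at day 28 (0.19 to 0.44) is below that of vehicle tissue (0.66 to 0.90).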

How the data were processed

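The deposited scanner files give, per the file headers, the authors' processed signal intensity for each spot (linear and background-subtracted; the software was Agilent Feature Extraction, version 10.7, per the submitters' processing notes), its median signal and background, and other marks for outlier, saturated and well-above-background spots. The authors' deposited value table holds a ratio, which matched processed signal over the array's 75th percentile (their log2 values correlated at 1.0 on every array; medians of the columns ran from 0.099 to 0.108), so it is linear and not centred by gene.

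Log2 processed signal minus each array's 75th percentile was used. Outlier spots (0 to 9 per array) were left out, and 0 spots were saturated. Probes were named by accession through a GRCr8 RefSeq table, which named 27460 of 61657 probes. A gene was read by its brightest probe among those that cleared background throughout 1 or more of the 4 groups, which left 11853 genes. These and, separately, 41223 probes were fitted with limma 3.58.1 in R 4.3.3 on 12 arrays, each group having its own mean. Benjamini-Hochberg adjustment was used with a threshold of 0.05. The fit was tested on simulated data. Folds are the log2 ratios turned back to the linear scale. Days 1 and 7 have ratios only.

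Probe pairs were compared by exact permutation of arrays within days (400 permutations). Promoters are from the RefSeq table of GRCr8, and probe sequences were not used here. Alternatives were quantile, median and normexp scaling, the deposited table, other filters, averaging the probes of a gene, replicate and slide blocks, and leaving out arrays. Normexp used the median signal, since the files used carry no mean signal column. All Ugt genes of the lists, the members called and up to 4 others of each list were named, except a few that are not reported here. The members, the lists and this rule were chosen with earlier results of these data known.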

Additional observations from a re-analysis of the deposited data

How the results depend on the processing

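The count of the 5 genes called higher was 0 at day 14 under every alternative except slide as a random block, where it was 1 (Ugt2b7, log2 ratio 4.13, adjusted p 0.047 by limma). Slide as a fixed block is left out of this count, since its day 14 ratio rests on 1 ANP array. At day 28 it was 3, 1 with the replicate block and 1 to 4 without a single array, and of the 9 probes 7 were called, 2 to 8 without a single array. With normexp, 1 probe was called at day 14. Same-numbered ANP and vehicle arrays correlated in their deviations at 0.13, 0.07 and 0.14 on day 14, where every array correlated best with its own number, and at -0.07, -0.04 and 0.11 on day 28, where that did not hold, so the numbers were not taken as a pairing. The replicate block moved the genes called from 57 to 7 at day 14 and from 842 to 497 at day 28, and the adjusted p at day 28 of Ugt2b15 to 0.0547 and of Ugt2b37 to 0.0538. With slide as a random block 133 and 1856 genes were called. The correlation within slide was estimated at -0.09 in that fit. As this is negative, the calls of that fit, with that of Ugt2b7, are not read as allowing for slide. Fitted with only the groups of day 28, Ugt1a6 had an adjusted p of 0.0517. The Ugdh mean of both days missed the threshold with quantile scaling (0.0554), normexp (0.0516), no filter (0.061) and the replicate block (0.058).

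The ratio at day 28 minus that at day 14 was smaller than its SE for 3 genes and turned its sign under some alternatives. For Ugdh it was -0.03, and 0.01 with median scaling and between -0.24 and 0.13 without a single array. For Ugt2b15 it was 0.11, and -0.04 with normexp and between -0.40 and 0.65 without a single array. For Ugt2b37 it was 0.45 ± 0.75, and between -0.05 and 1.01 without a single array, with its sign turned in 1 case. In the pathway lists 1 gene was higher at day 14, and 2 with quantile, median or normexp scaling or a filter on all 12 arrays. With normexp 1 gene was lower at day 14 (0 otherwise) and 5 at day 28 (2 otherwise, 1 with probes averaged per gene). Averaging the probes of each gene gave log2 ratios at day 1 of 2.65 for Ugt2b15, 2.65 for Ugt2b37 and 1.12 for Ugt1a6, and of 1.27 for Ugt1a6 at day 7. Genes called at day 28 were 530 higher and 312 lower, 773 and 244 with median scaling, and 667 and 571 with normexp. The causes were not tested.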
